A study of Mus musculus with 24 samples.

Results

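The genes described here are 30 enzymes and regulators of cholesterol and fatty acid synthesis, chosen by symbol among the 55414 gene lines of each count file and each matched to a single Ensembl identifier. They fall into 4 roles: 8 genes of the mevalonate steps that lead to squalene, 10 enzymes that turn squalene into cholesterol, 6 genes of the SREBP control system and of sterol transport, and 6 enzymes of fatty acid synthesis and desaturation. All 30 passed the filter on low counts in each model fitted. Messenger RNA was sequenced from mouse bone-marrow dendritic cells (DCs), which take up and present antigen to T cells. The cells received AZD5582, a SMAC mimetic that antagonises inhibitor of apoptosis (IAP) proteins, or its solvent DMSO.

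The 24 libraries form 8 groups of 3. GM cultures were grown with 20 ng/ml GM-CSF and taken at day 8, per the labels' extraction text (the growth text names a different day of use). They were treated for 24 h with 0.1, 0.5 or 1 µM AZD5582 or with DMSO, or were collected at the start of treatment (t0). FL cultures received FLT3L at 200 ng/ml as well as GM-CSF at 20 ng/ml and were used at day 16. They were treated for 24 h with 0.05 µM AZD5582 or with DMSO, or were collected at t0. The series calls GM cultures monocyte-derived DCs and FL cultures type 1 conventional DCs (cDC1). All cells came from C57BL/6JRj mice that were wild type or carried Cas9-EGFP, and the labels do not give the genotype of a sample. The GM libraries share the culture number DC105 and carry replicate numbers 1, 2 and 3, whereas the FL libraries come from cultures 91, 94 and 95. The series describes the replicates as biological, but whether the GM replicates came from separate animals is not given, so p-values measure the spread between these libraries. The labels describe no sorting step. In such bulk samples fewer cells of a type and less RNA per cell cannot be told apart.

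Cholesterol is built from acetyl-CoA through mevalonate, isoprenoids, squalene and lanosterol, and fatty acids are built from the same acetyl-CoA pool. Transcription of most of these enzymes is driven by the SREBP factors, which SCAP escorts out of the endoplasmic reticulum when sterols are scarce and which INSIG proteins hold back when sterols are plentiful. In macrophages and DCs the balance of synthesis, uptake and export of sterols is known to shift with activation.

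RefSeq promoter windows of build GRCm38.p6, which run from 250 bases before to 50 bases after an annotated start, were on hand for 25 of the 30 genes. The build named for the counts is GRCm39, and no coordinate was converted between builds. The 4 windows printed here are those of a gene of the first pathway steps and of 3 genes chosen for their fold changes. Hmgcs1 (ENSMUSG00000093930) acts at the start of the mevalonate branch, Insig1 (ENSMUSG00000045294) and Msmo1 (ENSMUSG00000031604) had the lowest fold changes at 0.1 µM, and Idi1 (ENSMUSG00000058258) was higher there. Capitals mark the SREBP element TCACNCCAC, found here as TCACCCCAC, and the NF-Y box CCAAT on either strand (ATTGG where it is on the other strand).

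Hmgcs1, chr13:119690101-119690400, strand +: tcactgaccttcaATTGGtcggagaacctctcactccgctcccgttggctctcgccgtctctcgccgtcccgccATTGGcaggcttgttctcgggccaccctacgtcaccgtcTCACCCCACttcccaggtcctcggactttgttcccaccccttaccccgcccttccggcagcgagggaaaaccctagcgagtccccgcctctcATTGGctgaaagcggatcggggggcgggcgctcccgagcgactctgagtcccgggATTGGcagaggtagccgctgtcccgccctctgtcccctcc
Insig1, chr5:28071162-28071461, strand +: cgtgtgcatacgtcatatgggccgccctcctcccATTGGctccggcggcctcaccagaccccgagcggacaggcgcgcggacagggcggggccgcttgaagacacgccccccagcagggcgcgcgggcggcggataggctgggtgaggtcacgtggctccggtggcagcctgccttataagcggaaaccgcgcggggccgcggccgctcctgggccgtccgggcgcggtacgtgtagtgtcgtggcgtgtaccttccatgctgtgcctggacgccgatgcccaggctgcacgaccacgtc
Msmo1, chr8:64733529-64733828, strand -: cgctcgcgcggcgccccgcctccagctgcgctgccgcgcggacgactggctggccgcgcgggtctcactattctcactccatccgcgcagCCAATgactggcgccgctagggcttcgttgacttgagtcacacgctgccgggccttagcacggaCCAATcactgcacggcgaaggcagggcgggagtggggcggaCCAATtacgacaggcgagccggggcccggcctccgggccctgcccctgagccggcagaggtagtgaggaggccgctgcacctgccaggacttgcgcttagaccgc
Idi1, chr13:8885356-8885655, strand +: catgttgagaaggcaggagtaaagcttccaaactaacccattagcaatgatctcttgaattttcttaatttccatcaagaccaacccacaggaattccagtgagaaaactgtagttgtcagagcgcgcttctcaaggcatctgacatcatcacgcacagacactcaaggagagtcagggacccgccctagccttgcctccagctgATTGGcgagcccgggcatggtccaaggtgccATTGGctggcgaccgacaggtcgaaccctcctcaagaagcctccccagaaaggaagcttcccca

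The SREBP element in this spelling was present in the window of 1 of the 25 genes, Hmgcs1, and in a window of 1.44% of the 27025 genes of the table. The NF-Y box was present in a window of 20 of the 25 genes, and 41.06% of all genes had one. The E-box CACGTG was in a window of 5 of the 25 genes (Hsd17b7, Sc5d, Dhcr7, Scap and Insig1), beside 8.09% of all genes. In the 4 windows printed no match shares a base with another. These are matches of letters only. The Insig1 window held 1 NF-Y box, on the other strand, and the Msmo1 window 3.

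Libraries held 27.01 to 85.8 M counts in genes (M for 1e6, median 51.7 M), and 18178 to 20534 genes had a count. Mitochondrial genes took 1.38% to 8.04% of gene counts. The GM library at 1 µM, replicate 1, had the highest share, 8.04%, and replicates 2 and 3 at that dose had 3.96% and 4.27%. Its values are named where they decide a result. Levels below are CPM (counts per 1e6 counts) on library sizes scaled over all 24 libraries, and fold changes come from edgeR's quasi-likelihood fit. A gene was called higher or lower where its Benjamini-Hochberg p, adjusted across every gene in the fit, was under 0.05. The series compares doses of the compound with solvent and with the starting cells, and the share of all genes called differs between these comparisons, so each member count is given beside the share of all genes called. The DC marker Cd74 ran from 4696 to 15350 CPM over the 24 libraries. The cDC1 marker Xcr1 was at 383, 105 and 147 CPM in FL t0 libraries, against 0.105, 0.165 and 0.146 CPM in GM t0 libraries. In FL cultures after 24 h it was at 1.67, 2.76 and 1.79 CPM at 0.05 µM, against 7.76, 15.5 and 26.4 CPM in DMSO. The sum of all 7 cDC1 markers, most of it Irf8, did not follow Xcr1, with 1562 to 3743 CPM at 0.05 µM and 779 to 1652 CPM in DMSO, groups that overlap, and 3 of the 7 were called lower and 0 higher. FL libraries also held neutrophil transcripts, whose 8 markers summed to 164.5 to 3429 CPM at 0.05 µM and to 1973 to 9509 CPM in DMSO. These groups overlap, and 0 of the 8 were called. The 6 mast cell and basophil markers summed to 308 to 1531 CPM at 0.05 µM and to 628 to 1415 CPM in DMSO, and 0 of the 6 were called. Of the FL DMSO libraries, that of culture 91 stood apart, with 24220 CPM over 10 markers of mature DCs against 8077 and 10080 CPM in cultures 94 and 95.

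Divided by exon length (in kb, over all exons of a gene in GENCODE M21), the levels of the 30 genes in GM DMSO libraries spanned 0.885 ± 0.26 CPM per kb for Elovl6 to 41.7 ± 4.8 CPM per kb for Acly (SD, n = 3). Acly, Hmgcs1, Srebf2 and Mvd headed this order, and Lss, Tm7sf2 and Elovl6 closed it. At 0.1 µM AZD5582 Pmvk was at the top with 63.0 ± 5.9 CPM per kb, against 28.8 ± 1.4 CPM per kb in DMSO. Idi1 came next with 41.4 ± 7.3 CPM per kb, against 19.2 ± 3.4 CPM per kb in DMSO, and Acly (40.5 ± 3.1 CPM per kb) did not differ from Idi1 beyond that spread. The counts of some of these genes are uncertain. Sequences of 95% or more identity over at least 200 bases were found in another annotated gene for Idi1 (Gm13502, with 8.92% of the counts of Idi1), Fdps (Gm3571, 8.33%), Acaca (Gm5182, 6.09%), Fdft1 (Gm6781, 1.27%) and Acat2 (Acat3, 1.01%). Exons of Fdft1 also lie opposite those of the abundant Ctsb over 774 bases, and Tm7sf2 shares 532 bases with Vps51 on its own strand. Fdps shares 1124 bases with Gm43738 on its own strand, and Hmgcs1 lies opposite Gm48342 over 557 bases. Gm43738 had 0.015% of the counts of Fdps, and Gm48342 0.013% of those of Hmgcs1. Acat2 also matched the opposite strand of Tcp1 over 445 bases at 98.7% identity, and Tcp1 had 1393% of the counts of Acat2. The libraries were stranded, but whether the counting used strand is not stated in the labels or files.

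At 0.1 µM AZD5582 for 24 h, most of the synthesis pathway was lower than in DMSO. Of the 30 genes 25 were called lower and 2 higher in GM cultures, where 20.3% of all genes tested were called lower and 19.9% higher. The median log2 fold change over the 30 genes was -0.62, and that over all genes was -0.01. The largest falls were those of Insig1, Msmo1, Stard4 and Fasn, and the 2 genes that rose were Pmvk and Idi1.

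**Figure D1:**
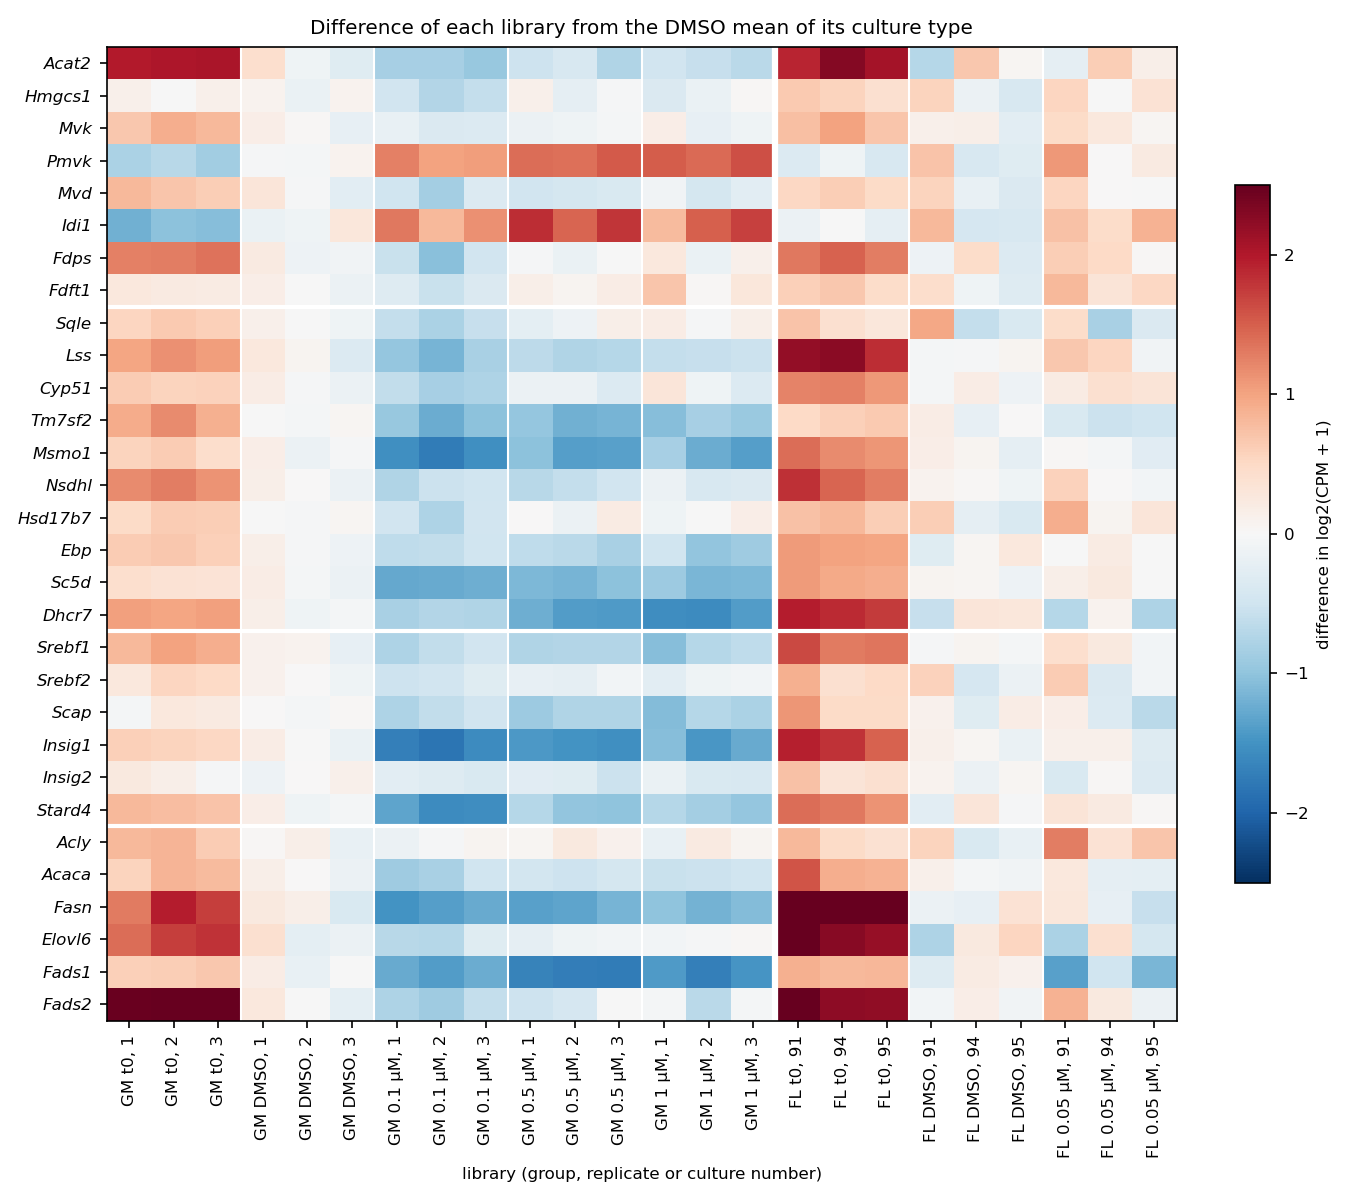
Difference of log2(CPM + 1) of each library from the DMSO mean of its own culture type, for 30 genes (rows, in 4 roles separated by white lines) in 24 libraries (columns). Blue is lower and red higher than DMSO; the GM doses are blue in most rows and red for Pmvk and Idi1, and the t0 columns are red in most rows.

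Among the mevalonate genes 5 fell, 2 rose and 1 was not called at 0.1 µM. Acat2, a thiolase that joins acetyl-CoA units, was at 4.53, 4.53 and 4.09 CPM at 0.1 µM, against 12.1, 8.11 and 6.95 CPM in DMSO. The fold change of Acat2 was -0.98 ± 0.17 on the log2 scale (SE; edgeR adjusted p = 0.000153), and the groups did not overlap. Pmvk (ENSMUSG00000027952, chromosome 3), the phosphomevalonate kinase, was at 119, 101 and 103 CPM at 0.1 µM, against 48.4, 47.6 and 52.2 CPM in DMSO, a rise of 2.29-fold (log2 1.20 ± 0.09, edgeR adjusted p = 1.16e-08). Idi1, the isomerase that makes dimethylallyl diphosphate, was at 169, 118 and 149 CPM at 0.1 µM, against 59.6, 61.7 and 81.1 CPM in DMSO. It rose 2.26-fold (log2 1.18 ± 0.19, edgeR adjusted p = 0.000103), and in both genes every treated library was above every DMSO library. Hmgcs1, a synthase at the start of the mevalonate branch, fell by 0.54 ± 0.11 on the log2 scale, with 115, 95.3 and 105 CPM against 169, 141 and 170 CPM in DMSO. Fdps and Mvd fell by 0.64 ± 0.14 and 0.51 ± 0.14, and Fdft1, the squalene synthase, fell by 0.36 ± 0.13. Mvk, the mevalonate kinase, had a log2 fold change of -0.25 ± 0.13 and an edgeR adjusted p of 0.124. The call of Mvd was lost without DMSO replicate 1 (log2 -0.34, edgeR adjusted p = 0.0659), and that of Fdft1 without any of 5 libraries in turn (log2 -0.27 to -0.40, edgeR adjusted p 0.054 to 0.177).

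All 10 enzymes from squalene to cholesterol fell at 0.1 µM, with log2 fold changes of -1.57 to -0.53. Msmo1, the oxidase that strips methyl groups from the sterol ring, was at 29.7, 25.3 and 29.5 CPM at 0.1 µM, against 99.0, 79.5 and 85.4 CPM in DMSO (log2 -1.57 ± 0.14, edgeR adjusted p = 1.15e-07). Sc5d, the sterol desaturase, was at 23.0, 23.0 and 23.8 CPM at 0.1 µM, against 65.0, 55.1 and 51.6 CPM in DMSO (log2 -1.23 ± 0.10, edgeR adjusted p = 2.79e-08). Tm7sf2, a sterol reductase, was the least abundant of the 3, at 3.53, 2.69 and 3.25 CPM at 0.1 µM against 7.65, 7.36 and 8.02 CPM in DMSO (log2 -1.21 ± 0.15, edgeR adjusted p = 3.32e-06). In none of these 3 genes did a treated library reach the lowest DMSO library. Lss, which closes the ring to lanosterol, fell by 0.99 ± 0.13, and Dhcr7 (ENSMUSG00000058454, chromosome 7), which makes cholesterol in the last step of its branch, fell by 0.73 ± 0.09. Sqle, Cyp51, Nsdhl, Hsd17b7 and Ebp fell by 0.53 to 0.68. Each of the 10 calls held when any of the 6 libraries was left out.

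Of the 6 control and transport genes 5 fell. Insig1, which retains SCAP and is itself a target of SREBP, was at 17.7, 16.2 and 19.5 CPM at 0.1 µM, against 68.0, 59.3 and 53.6 CPM in DMSO. This 3.23-fold fall (log2 -1.69 ± 0.12, edgeR adjusted p = 4.31e-09) was the largest of the 30 genes in this comparison by point estimate. Stard4, a carrier of cholesterol between membranes, was at 21.4, 17.7 and 17.9 CPM at 0.1 µM, against 61.4, 50.6 and 52.5 CPM in DMSO (log2 -1.46 ± 0.12, edgeR adjusted p = 2.23e-08). Scap was at 21.6, 24.1 and 26.6 CPM at 0.1 µM, against 37.6, 36.5 and 38.5 CPM in DMSO (log2 -0.57 ± 0.11, edgeR adjusted p = 0.000383). Its counts are uncertain, since 985 bases of its exons overlap 5830462I19Rik on the opposite strand, although that gene had only 0.042% of the counts of Scap. The factors themselves fell less than Insig1 by point estimate: Srebf1 by 0.57 ± 0.11 and Srebf2 by 0.36 ± 0.09. Insig2, the paralog of Insig1, had a log2 fold change of -0.27 ± 0.12 and was not called (edgeR adjusted p = 0.0753).

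Of the 6 fatty acid genes 5 fell. Fasn, the fatty acid synthase, was at 25.8, 28 and 30.4 CPM at 0.1 µM, against 88.3, 82.5 and 56.9 CPM in DMSO (log2 -1.37 ± 0.16, edgeR adjusted p = 2.33e-06). Fads1, a desaturase of polyunsaturated fatty acids, was at 33.3, 30.4 and 34 CPM at 0.1 µM, against 92.8, 72.0 and 81.1 CPM in DMSO (log2 -1.26 ± 0.10, edgeR adjusted p = 2.93e-08). Fads2, its partner, was at 10.5, 9.62 and 12.1 CPM at 0.1 µM, against 22.6, 18.7 and 15.6 CPM in DMSO (log2 -0.75 ± 0.19, edgeR adjusted p = 0.00426). In these 3 genes the groups did not overlap. Acaca, which makes malonyl-CoA, and the elongase Elovl6 fell by 0.69 ± 0.11 and 0.63 ± 0.19, and the call of Elovl6 was lost without DMSO replicate 1 (log2 -0.36, edgeR adjusted p = 0.136) and without 0.1 µM replicate 1 or 2 (edgeR adjusted p = 0.0621 and 0.0617). Acly, which cleaves citrate to give cytosolic acetyl-CoA, was the exception at 198, 214 and 230 CPM at 0.1 µM against 225, 243 and 193 CPM in DMSO (log2 0.03 ± 0.11, edgeR adjusted p = 0.868), and its groups overlapped.

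**Figure D2:**
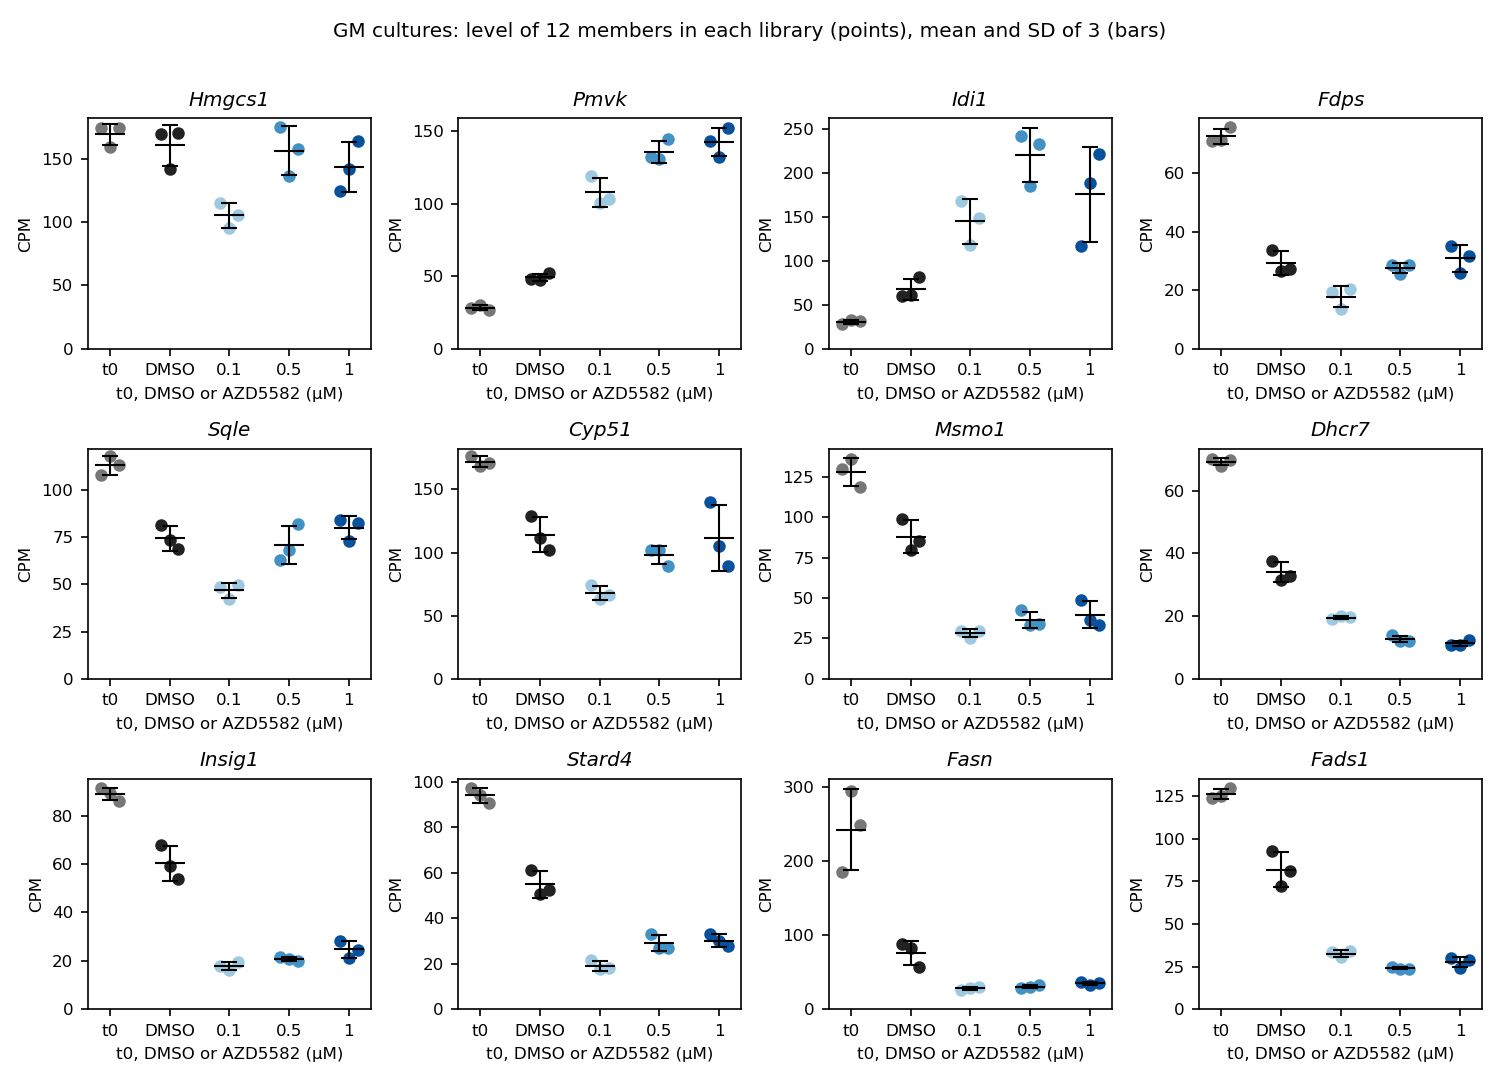
CPM of 12 genes in the 15 GM libraries (points), by t0, DMSO and AZD5582 dose in µM, with the mean and SD of 3 libraries. Hmgcs1, Fdps, Sqle and Cyp51 are lowest at 0.1 µM and are back within the DMSO range at 1 µM in at least 1 library, Dhcr7 has a lower mean at each higher dose, and Pmvk and Idi1 are above DMSO at every dose.

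At the higher doses the genes parted into those close to DMSO again and those that stayed below it. At 0.5 µM 17 of the 30 were called lower and 2 higher than DMSO, beside 27.7% and 25.8% of all genes. At 1 µM 14 were lower and 3 higher, beside 28.2% and 26.9% of all genes. The share of genes called grew with dose over all genes and shrank among the 30. Without 1 µM replicate 1, the library with the high mitochondrial share, 16 of the 30 were called lower at 1 µM, close to the 17 at 0.5 µM. The median log2 fold change over the 30 was -0.62, -0.39 and -0.22 at 0.1, 0.5 and 1 µM. The last value includes 1 µM replicate 1. Without that library some genes were further below DMSO, such as Msmo1 (-1.24, against -1.04 with it), and others nearer, such as Scap (-0.70 against -0.78). The 3 comparisons of a dose with DMSO share their DMSO libraries, and their values are therefore set side by side only.

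Several early and middle steps of the sterol route were no longer called lower at 0.5 and 1 µM. Fdps, which makes farnesyl diphosphate, was at 33.9, 26.5 and 27.3 CPM in DMSO, 19.5, 13.6 and 20.5 CPM at 0.1 µM, 28.6, 25.7 and 28.7 CPM at 0.5 µM and 35.1, 25.9 and 31.9 CPM at 1 µM. Sqle, the epoxidase that acts on squalene, was at 81.6, 73.3 and 68.5 CPM in DMSO, 48.8, 42.2 and 49.6 CPM at 0.1 µM, 62.6, 68.2 and 81.9 CPM at 0.5 µM and 84.2, 73.0 and 82.6 CPM at 1 µM. In both genes the libraries at 0.1 µM lay below all others, and those at 0.5 and 1 µM overlapped DMSO. The log2 fold changes over DMSO at 1 µM were 0.19 ± 0.14 for Fdps, 0.21 ± 0.10 for Sqle, 0.08 ± 0.14 for Cyp51, 0.13 ± 0.12 for Hsd17b7 and -0.06 ± 0.11 for Hmgcs1, and none of these was called. Srebf2, Elovl6 and Fads2, called lower at 0.1 µM, were likewise not called at 0.5 or 1 µM. Fdft1 was called higher than DMSO at 1 µM (log2 0.48 ± 0.13, edgeR adjusted p = 0.00564). There its groups overlapped, with 98.6, 62.0 and 74.2 CPM at 1 µM against 67.8, 59.9 and 54.9 CPM in DMSO, and replicate 1, the library with the high mitochondrial share, had the highest value. Without that library the log2 fold change of Fdft1 was 0.25 (edgeR adjusted p = 0.0367).

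Other genes were called lower than DMSO at every dose. Insig1 was at 68.0, 59.3 and 53.6 CPM in DMSO, 17.7, 16.2 and 19.5 CPM at 0.1 µM, 21.7, 20.7 and 20.1 CPM at 0.5 µM and 28.3, 21.1 and 24.6 CPM at 1 µM. Its log2 fold changes over DMSO were -1.69, -1.44 and -1.18, each called. Msmo1 had -1.57, -1.18 and -1.04, Sc5d -1.23, -1.05 and -0.98, Stard4 -1.46, -0.83 and -0.75, and Fasn -1.37, -1.23 and -1.03, all called. Without 1 µM replicate 1 the values at 1 µM were -1.31 for Insig1, -1.24 for Msmo1, -1.08 for Sc5d, -0.85 for Stard4 and -1.09 for Fasn. Msmo1, Sc5d and Stard4 were then no closer to DMSO at 1 µM than at 0.5 µM. Tm7sf2, Lss, Ebp, Srebf1, Scap, Acat2 and Acaca were also called lower at all 3 doses, and Nsdhl and Mvd at 0.1 and 0.5 µM. The call of Mvd at 0.5 µM was lost in 4 of 6 omissions of 1 library (edgeR adjusted p 0.0588 to 0.229). Insig2 was called at 0.5 µM (log2 -0.31 ± 0.12, edgeR adjusted p = 0.0368), and that call was lost without any of 3 libraries in turn (edgeR adjusted p 0.0811 to 0.174). Acat2 lost its call without DMSO replicate 1 at 0.5 µM (log2 -0.31, edgeR adjusted p = 0.0882) and at 1 µM (log2 -0.32, edgeR adjusted p = 0.0748).

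Dhcr7 and Fads1 were lower at 0.5 and 1 µM than at 0.1 µM by point estimate, as were the mean levels of Ebp, Srebf1 and Scap. Dhcr7 was at 37.5, 31.5 and 32.8 CPM in DMSO, 18.9, 20.1 and 19.7 CPM at 0.1 µM, 13.9, 12.2 and 12 CPM at 0.5 µM and 10.9, 10.8 and 12.3 CPM at 1 µM. Its log2 fold changes over DMSO were -0.73 ± 0.09, -1.33 ± 0.09 and -1.48 ± 0.10, the last with an edgeR adjusted p of 4.66e-10. Fads1 was at 92.8, 72.0 and 81.1 CPM in DMSO, 33.3, 30.4 and 34 CPM at 0.1 µM, 24.8, 23.8 and 23.7 CPM at 0.5 µM and 30.1, 24.2 and 28.7 CPM at 1 µM, with log2 fold changes of -1.26, -1.67 and -1.46. At 1 µM the falls of Dhcr7 and Fads1 differed by less than their standard errors, and without replicate 1 at that dose they were -1.47 and -1.54. The libraries of both genes at any dose were all below DMSO.

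Pmvk and Idi1 were called higher than DMSO at every dose. Pmvk was at 132, 131 and 144 CPM at 0.5 µM and at 143, 133 and 152 CPM at 1 µM, with log2 fold changes over DMSO of 1.55 ± 0.09 and 1.64 ± 0.09. Idi1 was at 242, 185 and 234 CPM at 0.5 µM and at 117, 189 and 222 CPM at 1 µM, with log2 fold changes of 1.80 ± 0.19 and 1.49 ± 0.19. The low value of Idi1 at 1 µM, 117 CPM, is that of replicate 1, and without it the log2 fold change at 1 µM was 1.70 (edgeR adjusted p = 4.19e-07).

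**Figure D3:**
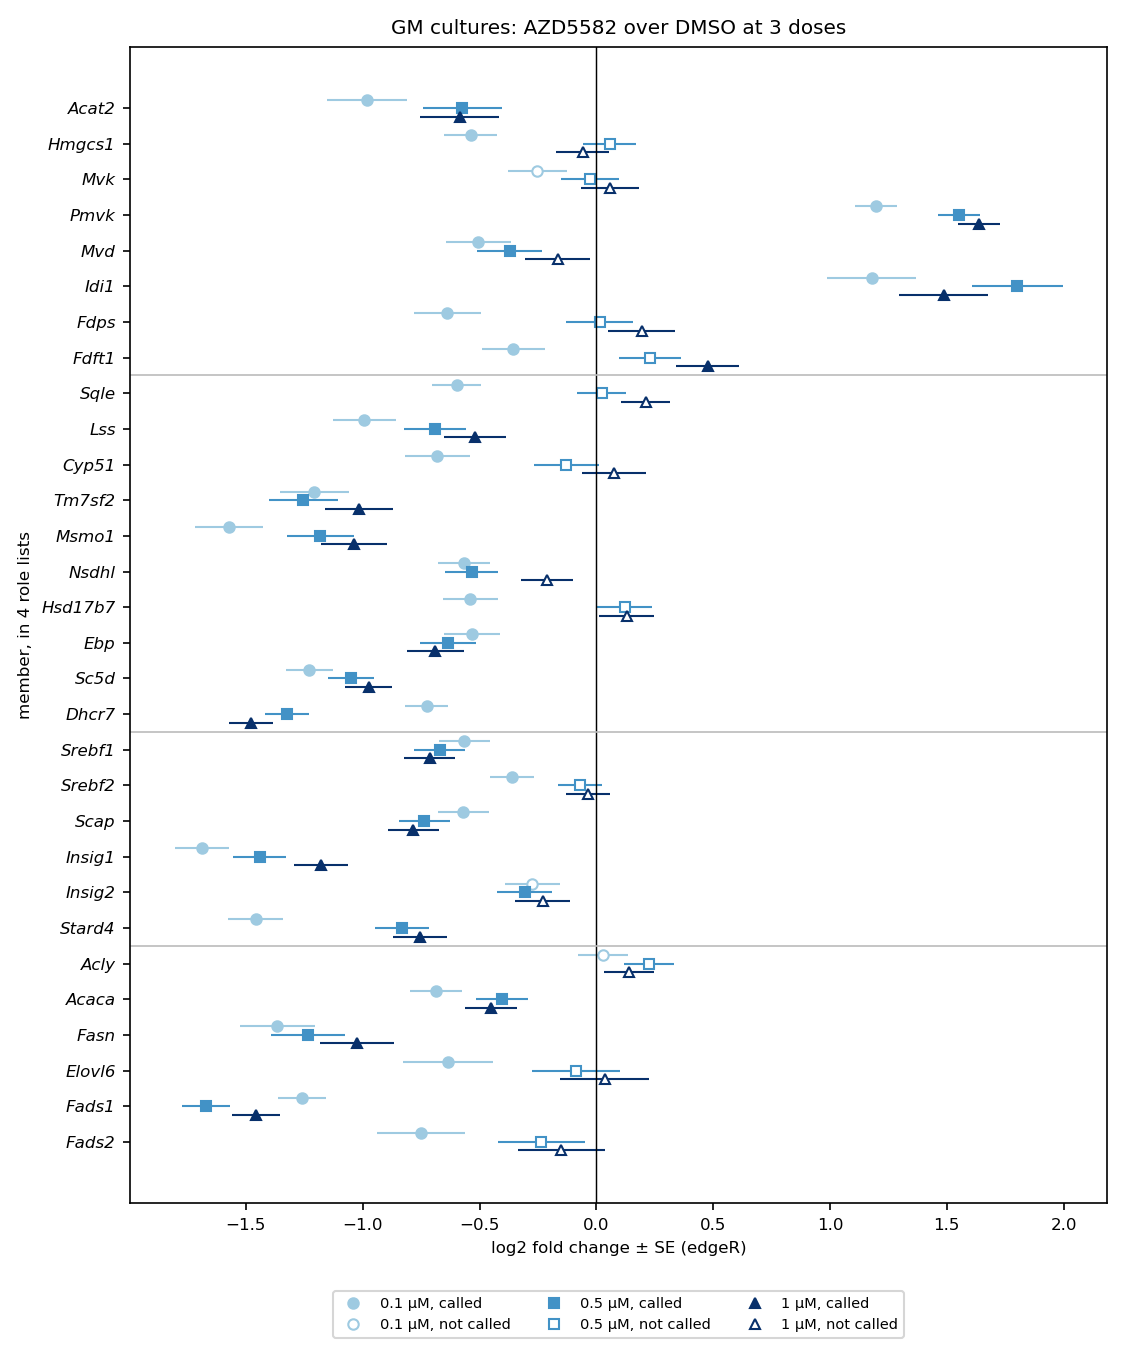
Log2 fold change of 30 genes (rows) over DMSO in GM cultures at 0.1 µM (circles), 0.5 µM (squares) and 1 µM (triangles), with SE; filled symbols were called. Symbols move towards or past 0 with dose for Hmgcs1, Fdps, Fdft1, Sqle, Cyp51 and Hsd17b7, and away from it for Dhcr7, Scap and Pmvk.

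Tested directly between doses, 9 of the 30 genes were higher and 2 lower at 0.5 µM than at 0.1 µM, where 2.98% of all genes were called higher and 8.47% lower. At 1 µM against 0.1 µM 15 were higher and 1 lower, beside 6.93% and 11.9% of all genes. The libraries at 0.1 µM serve here as the lower dose and above as the treated group, so their chance deviations enter both tests with opposite sign.

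Among the mevalonate genes the return was largest by point estimate for Fdft1 and Fdps, whose counts are uncertain because of the overlaps and copies named above. Fdft1 was at 98.6, 62.0 and 74.2 CPM at 1 µM, against 48.1, 41.0 and 46.8 CPM at 0.1 µM (log2 0.83 ± 0.13, edgeR adjusted p = 0.000269). Fdps rose by the same amount, 0.83 ± 0.14 (edgeR adjusted p = 0.000532), and Hmgcs1 by 0.48 ± 0.11 (edgeR adjusted p = 0.00628). Without 1 µM replicate 1 the rises of Fdft1, Fdps and Hmgcs1 were 0.61, 0.71 and 0.56. Pmvk rose further by 0.44 ± 0.09, and in all 4 genes every library at 1 µM was above every library at 0.1 µM. Without 1 µM replicate 1 Idi1 was called higher too (log2 0.52, edgeR adjusted p = 0.0401), and with it the value was 0.31 ± 0.19 (edgeR adjusted p = 0.289).

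Of the 10 later sterol enzymes 6 rose and 1 fell at 1 µM against 0.1 µM. Sqle rose by 0.81 ± 0.11 (edgeR adjusted p = 3.36e-05), Cyp51, the demethylase of lanosterol, by 0.76 ± 0.14 (edgeR adjusted p = 0.000852) and Hsd17b7 by 0.67 ± 0.12. Cyp51 was at 140, 105 and 89.0 CPM at 1 µM, against 74.2, 63.4 and 66.0 CPM at 0.1 µM, and without 1 µM replicate 1 its rise was 0.53. Dhcr7 fell by 0.75 ± 0.10 (edgeR adjusted p = 2.6e-05). Ebp, Tm7sf2 and Sc5d were not called, and Ebp was called lower without 1 µM replicate 1 (log2 -0.35, edgeR adjusted p = 0.0142). Among the control genes Stard4 rose by 0.70 ± 0.12, Insig1 by 0.51 ± 0.12 and Srebf2 by 0.32 ± 0.09. Of the fatty acid genes Elovl6 rose by 0.67 ± 0.20 and Fads2 by 0.60 ± 0.19, while Acly, Acaca, Fasn and Fads1 were not called.

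Of the 16 calls at 1 µM against 0.1 µM 10 held when any of the 6 libraries was left out. Those of Lss, Msmo1, Nsdhl, Srebf2, Elovl6 and Fads2 did not, and without 0.1 µM replicate 2 the number called higher was 9. At 0.5 µM against 0.1 µM Hsd17b7, Fdps, Stard4, Sqle and Hmgcs1 rose by 0.66, 0.65, 0.63, 0.62 and 0.59, while Dhcr7 fell by 0.60 and Fads1 by 0.41 ± 0.10 (edgeR adjusted p = 0.0136). Idi1 rose by 0.62 ± 0.19 (edgeR adjusted p = 0.042), and its call and those of Cyp51, Pmvk and Fdft1 were lost in 4, 4, 3 and 1 of 6 omissions of 1 library. Without 0.1 µM replicate 2 the number called higher was 5, and without any of 3 libraries the call of Fads1 was lost (edgeR adjusted p 0.0518 to 0.0592).

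Other genes of these pathways came from lists chosen by function. Of 13 further sterol synthesis genes 4 fell and 1 rose at 0.1 µM against DMSO, and 7 fell and 3 rose at 1 µM. Of all genes 20.3% were lower and 19.9% higher at 0.1 µM, and 28.2% and 26.9% at 1 µM. The median log2 fold change of the 13 was -0.19 at 0.1 µM and -0.18 at 1 µM, beside -0.01 over all genes at either dose. Lbr, a sterol reductase of the nuclear envelope, was at 7.99, 6.55 and 7.74 CPM at 0.1 µM, against 34.9, 31.7 and 32.4 CPM in DMSO (log2 -2.08 ± 0.11, edgeR adjusted p = 2.7e-10). Lbr was also lower at 1 µM (log2 -1.94).

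Of 16 further fatty acid genes 7 fell and 4 rose at 0.1 µM, beside the same 20.3% and 19.9% of all genes, and their median was -0.23. The stearoyl-CoA desaturases Scd1 and Scd2 fell by 1.32 ± 0.12 and 1.27 ± 0.14 at 0.1 µM and by 2.29 ± 0.13 and 1.95 ± 0.15 at 1 µM. Slc25a1, the mitochondrial citrate carrier that feeds Acly, rose by 0.71 ± 0.08 at 0.1 µM and by 1.09 ± 0.09 at 1 µM. Of 13 genes of sterol uptake, storage and export 6 fell and 2 rose at 0.1 µM, with a median of -0.27. Apoe, a lipoprotein of sterol export, was at 31.2, 31.3 and 33.3 CPM at 0.1 µM, against 954, 612 and 802 CPM in DMSO (log2 -4.56 ± 0.20, edgeR adjusted p = 1.77e-10). Nr1h3, the sterol sensor LXR alpha, rose by 1.97 ± 0.21 at 0.1 µM (edgeR adjusted p = 1.01e-06).

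Markers of other cells moved with the same treatment. The summed level of 9 macrophage markers was 11466 to 12245 CPM at 0.1 µM, 5863 to 6494 CPM at 0.5 µM and 3852 to 5092 CPM at 1 µM, against 27964 to 34051 CPM in DMSO, and 8, 9 and 9 of the 9 fell. The sum of 8 neutrophil markers was 21.2 to 27.6, 6.25 to 9.16 and 5.89 to 13.6 CPM, against 352 to 582 CPM in DMSO, and 7, 7 and 8 of the 8 fell, with Elane at 0 in all 3 libraries at 1 µM. The sum of 10 markers of mature DCs was 16698 to 18382, 20863 to 23733 and 22737 to 25723 CPM, against 6185 to 7562 CPM in DMSO, and all 10 rose at each dose. The sum of 12 cell cycle genes was 274 to 378 CPM at 0.1 µM, within which the DMSO range of 278 to 358 CPM lies, and 179 to 199 and 169 to 190 CPM at 0.5 and 1 µM. The sum of 6 dendritic markers was 8373 to 9105, 7437 to 8650 and 7686 to 9607 CPM, against 10721 to 13854 CPM in DMSO. Of these 6, 3 were called higher at each dose, and 2, 3 and 3 lower. The sum of 7 cDC1 markers, most of it Irf8, was 1400 to 1540, 1713 to 1894 and 2015 to 2164 CPM, against 639 to 777 CPM in DMSO. Of the 6 cDC1 markers tested, 2 were called higher and 2 lower at each dose. Of 6 mast cell and basophil markers 0, 1 and 3 were called higher at 0.1, 0.5 and 1 µM, and 0 lower. The summed level of the 10 later sterol enzymes was 445 to 538 CPM in DMSO, 240 to 264 CPM at 0.1 µM, 313 to 323 CPM at 0.5 µM and 320 to 398 CPM at 1 µM. The 398 CPM is that of 1 µM replicate 1, the library with the high mitochondrial share, and replicates 2 and 3 had 323 and 320 CPM. The part of these cell markers in the results was not tested.

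A day in DMSO also went with lower levels of most of these genes, relative to the cells at t0. In GM cultures 24 of the 30 genes were lower and 2 higher in DMSO than at t0, where 20.3% of all genes were called lower and 27.2% higher. This comparison shares its DMSO libraries with the dose comparisons, and time in culture, solvent and handling cannot be told apart in it. Its 26 calls held when any of the 6 libraries was left out.

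Fads2 fell most over the 24 h, followed by Acat2, Elovl6 and Fasn. Fads2 was at 22.6, 18.7 and 15.6 CPM in DMSO, against 108, 147 and 141 CPM at t0 (log2 -2.81 ± 0.19, edgeR adjusted p = 3.64e-09). Elovl6 was at 7.64, 4.55 and 4.89 CPM in DMSO, against 16.3, 20.7 and 21.8 CPM at t0 (log2 -1.79 ± 0.19, edgeR adjusted p = 3.66e-07). Fasn was at 88.3, 82.5 and 56.9 CPM in DMSO, against 185, 294 and 248 CPM at t0 (log2 -1.69 ± 0.16). All 6 fatty acid genes fell, Acly included, by 0.77 ± 0.11.

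In the mevalonate steps Acat2 fell furthest, with 12.1, 8.11 and 6.95 CPM in DMSO against 37.7, 38.6 and 39.4 CPM at t0 (log2 -2.10 ± 0.17, edgeR adjusted p = 1.1e-08). Pmvk rose by 0.79 ± 0.09, with 48.4, 47.6 and 52.2 CPM in DMSO against 28.3, 30.2 and 26.6 CPM at t0. Idi1 rose by 1.13 ± 0.19, with 59.6, 61.7 and 81.1 CPM in DMSO against 28.3, 32.1 and 31.5 CPM at t0. Hmgcs1 (-0.09 ± 0.11) and Fdft1 (-0.24 ± 0.13) were not called. All 10 later sterol enzymes fell, by 0.38 for Sc5d to 1.24 for Nsdhl, a sterol dehydrogenase. Tm7sf2 fell by 1.11 ± 0.14 and Lss by 1.08 ± 0.13. Of the control genes Srebf1 fell by 0.93 ± 0.11, Stard4 by 0.79 ± 0.11 and Insig1 by 0.57 ± 0.11, and Scap and Insig2 were not called. Over the same 24 h the 12 cell cycle genes summed to 278 to 358 CPM in DMSO, against 1463 to 1740 CPM at t0, and all 12 fell, and the mature DC sum was 6185 to 7562 CPM in DMSO against 856 to 980 CPM at t0. The macrophage markers summed to 27964 to 34051 CPM in DMSO, against 19043 to 24367 CPM at t0, with 6 of 9 called higher and 2 lower. The 7 cDC1 markers, most of whose sum was Irf8, summed to 639 to 777 CPM in DMSO, against 200.5 to 233 CPM at t0. Of the 6 cDC1 markers tested, 2 were called higher and 1 lower. The part of these markers in the result was not tested.

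At t0 the pathway differed between the culture types. Of the 30 genes 11 were higher and 5 lower in FL than in GM cultures, beside 23.4% and 17.5% of all genes, so the lower calls were about as frequent as over all genes. FL t0 libraries had 774 to 950 CPM over the 9 macrophage markers, against 19043 to 24367 CPM in GM t0 libraries, and 1210 to 4096 CPM over the 8 neutrophil markers, against 269 to 327 CPM. The 6 mast cell and basophil markers summed to 192 to 731 CPM in FL t0, against 33.8 to 45.8 CPM in GM t0, with 5 of the 6 called higher and 0 lower. The part of these cells in the results was not tested. Culture medium, culture length and cell type all differ between these groups and cannot be told apart. Pmvk was at 96, 112 and 92.3 CPM in FL t0 libraries, against 28.3, 30.2 and 26.6 CPM in GM t0 libraries (log2 1.82 ± 0.25, edgeR adjusted p = 7.15e-06). Idi1 was at 83.2, 91.6 and 78.6 CPM in FL t0, against 28.3, 32.1 and 31.5 CPM in GM t0 (log2 1.46 ± 0.27, edgeR adjusted p = 0.000201). Fdps was at 162, 178 and 157 CPM in FL t0, against 70.9, 71.6 and 75.7 CPM in GM t0 (log2 1.19 ± 0.19, edgeR adjusted p = 4.61e-05). In these 3 genes the lowest FL library was above the highest GM library.

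Later sterol enzymes went both ways at t0. Lss was higher by 0.86 ± 0.17, with 81.5, 85.0 and 64.4 CPM in FL t0 against 40.4, 44.9 and 41.7 CPM in GM t0. Ebp, a sterol isomerase, was lower, with 43.2, 41.3 and 40.9 CPM in FL t0 against 80.0, 82.0 and 77.3 CPM in GM t0 (log2 -0.93 ± 0.14, edgeR adjusted p = 1.63e-05). Dhcr7 was lower as well (log2 -0.67 ± 0.22, edgeR adjusted p = 0.0173), a call lost without FL t0 culture 95 (log2 -0.62, edgeR adjusted p = 0.0629). Insig1 was higher by 0.74 ± 0.15, with 169, 153 and 122 CPM in FL t0 against 91.3, 89.3 and 86.2 CPM in GM t0, and Srebf1 was lower (log2 -0.53 ± 0.14). Elovl6 was higher (log2 1.10 ± 0.32), and Acly and Fads1 were lower (log2 -0.58 ± 0.22 and -0.53 ± 0.17), although the call of Acly was lost without any of 5 libraries in turn (edgeR adjusted p 0.0512 to 0.14) and that of Fads1 without FL t0 culture 94 (edgeR adjusted p = 0.0519).

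In FL cultures many of the genes were likewise lower after 24 h in DMSO. Of the 30 genes 18 were lower and 0 higher in FL DMSO than in FL t0, beside 5.18% and 4.96% of all genes. By unadjusted p under 0.05 these counts were 22 and 0, and DESeq2 also called 0 higher. The falls were largest for Fasn, Fads2, Elovl6, Lss and Acat2. Same-numbered FL libraries deviated together, so the culture number was also fitted as a replicate block, and Acly (-0.56, edgeR adjusted p = 0.047), Fads1 (-0.87, edgeR adjusted p = 0.0267), Scap (-0.68, edgeR adjusted p = 0.0482) and Srebf2 (-0.60, edgeR adjusted p = 0.0361) were then called lower too.

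Fasn was at 32.3, 31.3 and 46.4 CPM in FL DMSO, against 371, 215 and 231 CPM in FL t0 (log2 -2.89 ± 0.32, edgeR adjusted p = 0.00965). Fads2 was at 24.9, 29.5 and 24.6 CPM in FL DMSO, against 171, 126 and 126 CPM in FL t0 (log2 -2.42 ± 0.27, edgeR adjusted p = 0.0109). Lss was at 16.6, 16.8 and 17.9 CPM in FL DMSO, against 81.5, 85.0 and 64.4 CPM in FL t0 (log2 -2.16 ± 0.22, edgeR adjusted p = 0.00855). In these 3 genes every FL DMSO library was below every t0 library.

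Dhcr7 was at 7.14, 14.1 and 13.8 CPM in FL DMSO, against 46.5, 43.8 and 40.3 CPM in FL t0, and Nsdhl at 24.9, 23.7 and 21.4 CPM against 84.4, 65.1 and 57.7 CPM (log2 -1.89 ± 0.34 and -1.56 ± 0.22). Insig1 was at 47.2, 45.0 and 38.3 CPM in FL DMSO, against 169, 153 and 122 CPM in FL t0 (log2 -1.76 ± 0.19, edgeR adjusted p = 0.00965), and Srebf1 and Stard4 fell by 1.47 ± 0.17 and 1.28 ± 0.18. Pmvk (0.38 ± 0.36) and Idi1 (0.25 ± 0.32) were not called, and their groups overlapped. The calls rest on few libraries: Lss and Fasn held when any of the 6 libraries was left out, and without FL t0 culture 91, 94 or 95 the number called lower was 2, 10 and 3. Over all genes the same 3 omissions left 13, 232 and 13 calls, against 1619 with every library. The mature DC markers summed to 8077 to 24220 CPM in FL DMSO, against 4559 to 5391 CPM in FL t0, with 4 of the 10 called higher and 0 lower. The cell cycle genes summed to 192 to 910 CPM against 1241 to 1333 CPM, and 0 of the 12 were called. The 6 dendritic markers summed to 9232 to 12976 CPM in FL DMSO, against 17500 to 22651 CPM in FL t0, with 2 of the 6 called lower and 0 higher. Their part was not tested.

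Against DMSO, 0.05 µM AZD5582 gave no call among the 30 genes in FL cultures by edgeR, beside 1.62% of all genes called higher and 1.28% called lower. At an unadjusted p under 0.05, 2 were higher (Fdft1 and Acly) and 2 lower (Tm7sf2 and Fads1), and DESeq2 called Fads1 and Tm7sf2 lower. The median log2 fold change was 0.14 over the 30 genes and -0.05 over all genes. With the culture number as a replicate block, Acly was higher (log2 0.78, edgeR adjusted p = 0.0343) and Fads1 lower (log2 -1.02, edgeR adjusted p = 0.0281). Without the libraries of culture 91, an omission chosen after seeing the data, 3 genes were called higher (Idi1, Fdft1 and Acly) and 1 lower (Fads1). The 9 macrophage markers summed to 324 to 734 CPM at 0.05 µM, against 891 to 1503 CPM in DMSO, with 3 of the 9 called lower and 1 higher. The 10 mature DC markers summed to 17128 to 33507 CPM against 8077 to 24220 CPM, groups that overlap, with 1 of the 10 called higher and 0 lower. Their part was not tested.

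Fads1 was at 18.3, 33.9 and 21.3 CPM at 0.05 µM in cultures 91, 94 and 95, against 38.6, 55.7 and 52.1 CPM in DMSO, lower in each culture (log2 -0.999 ± 0.24, edgeR adjusted p = 0.0672). Acly was at 407, 216 and 271 CPM at 0.05 µM, against 248, 128 and 148 CPM in DMSO, higher in each culture (log2 0.77 ± 0.31, edgeR adjusted p = 0.248). Fdft1 was at 140, 99.7 and 114 CPM at 0.05 µM, against 108, 73.1 and 63.1 CPM in DMSO (log2 0.53 ± 0.22, edgeR adjusted p = 0.26), likewise higher in each. Tm7sf2 was at 12, 10.6 and 10.9 CPM at 0.05 µM, against 18.4, 13.7 and 16.1 CPM in DMSO, with no overlap (log2 -0.53 ± 0.16, edgeR adjusted p = 0.13). Insig1 was at 47.6, 47.2 and 34.4 CPM at 0.05 µM, against 47.2, 45.0 and 38.3 CPM in DMSO (log2 -0.02 ± 0.19). The groups of Insig1 overlapped, as did those of Msmo1, at 63.5, 60.4 and 51.6 CPM against 70.5, 65.4 and 53.3 CPM (log2 -0.11 ± 0.16).

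**Figure D4:**
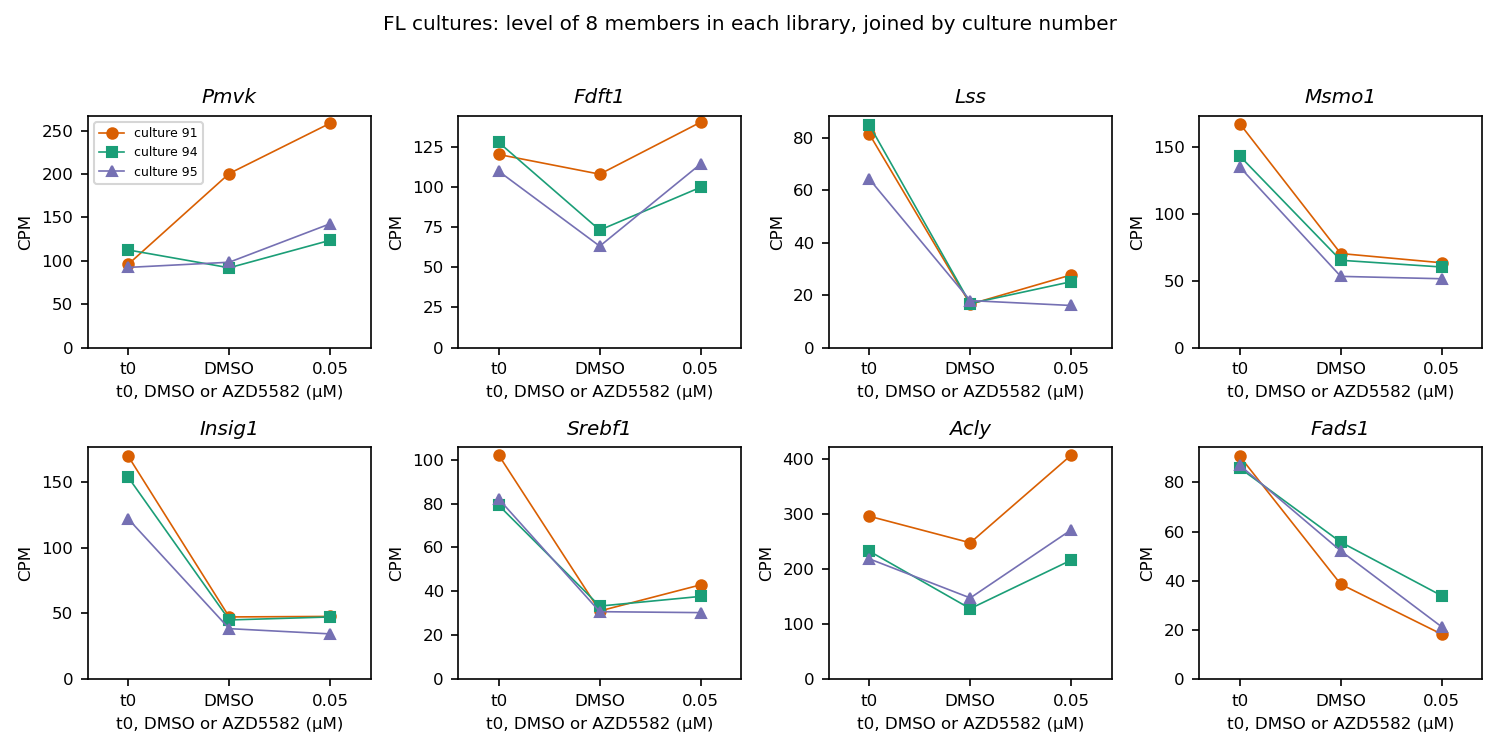
CPM of 8 genes in the 9 FL libraries, by t0, DMSO and 0.05 µM AZD5582, with libraries of a culture number joined by a line. Lss, Msmo1, Insig1 and Srebf1 are high at t0 and low in both 24 h groups, Fads1 is lower at 0.05 µM than in DMSO in each culture and Acly higher, and culture 91 has the highest Pmvk in both 24 h groups.

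The FL DMSO library of culture 91 differed from its group in some of these genes. Idi1 was at 162 CPM there, against 69.0 and 70.1 CPM in cultures 94 and 95, Pmvk at 200 against 91.9 and 98.3 CPM, Sqle at 176 against 59.4 and 68.8 CPM, and Srebf2 at 359 against 180 and 218 CPM. Acat2 was lowest there, at 5.99 CPM against 17.2 and 10.8 CPM, as was Dhcr7 at 7.14 CPM. Lss, Insig1 and Srebf1 lay within a narrow range in all 3. The same library had the highest mature DC sum of the group and the lowest cell cycle sum, 192 CPM against 910 and 572 CPM. The part of these markers was not tested.

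The response to AZD5582 was then compared between culture types, as the FL fold change at 0.05 µM minus the GM fold change at 0.1 µM. The doses differ, so dose and culture type cannot be told apart in this difference. It was called higher for 8 of the 30 genes and lower for 0, beside 0.967% and 0.707% of all genes. The count of 0 lower was also 0 at an unadjusted p under 0.05 and by DESeq2. With the replicate block 18 genes were called higher. The median difference was 0.83 over the 30 genes and 0.03 over all genes.

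**Figure D5:**
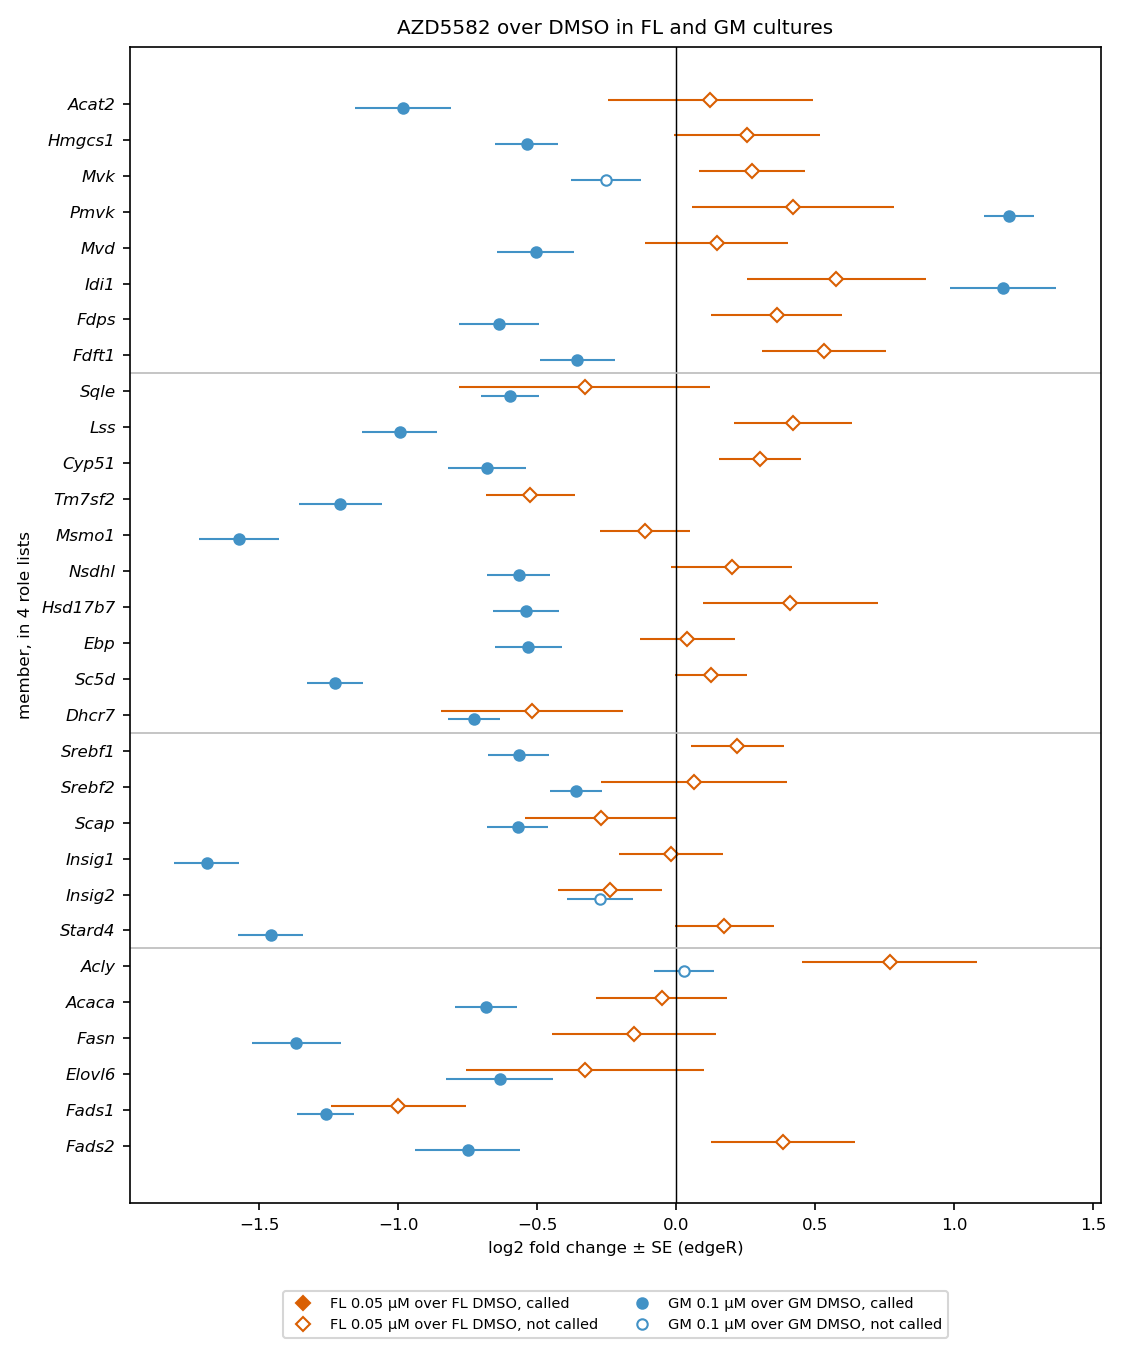
Log2 fold change of 30 genes (rows) over DMSO, with SE, at 0.05 µM in FL cultures (diamonds) and at 0.1 µM in GM cultures (circles); filled symbols were called. For Insig1, Stard4, Msmo1 and Sc5d the GM values lie below -1.2 and the FL values near 0, while for Fads1, Dhcr7 and Tm7sf2 both lie below 0.

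The control genes Insig1, Stard4 and Srebf1 differed by 1.75 ± 0.21, 1.71 ± 0.20 and 0.86 ± 0.20 (edgeR adjusted p = 0.000142, 0.000133 and 0.0282). The sterol enzymes Msmo1, Lss, Sc5d and Cyp51 differed by 1.53 ± 0.21, 1.49 ± 0.24, 1.43 ± 0.15 and 1.06 ± 0.20. In the mevalonate steps Fdps differed by 1.08 ± 0.27 (edgeR adjusted p = 0.046), a call lost in 10 of 12 omissions of 1 library (edgeR adjusted p 0.0518 to 0.154). The call of Srebf1 was lost in 7 of the 12 (edgeR adjusted p 0.0565 to 0.0959). Of the fatty acid genes none was called, and Fasn had the smallest p (1.29 ± 0.33, edgeR adjusted p = 0.052). For Pmvk the difference was -0.70 ± 0.34 (edgeR adjusted p = 0.395), and for Fads1 it was 0.33 ± 0.24 (edgeR adjusted p = 0.613).

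The change over 24 h in DMSO was compared in the same way, FL minus GM. It was called lower for 4 of the 30 genes and higher for 0, beside 3.96% and 0.881% of all genes, and over all genes the median difference was -0.12. At an unadjusted p under 0.05, 1 gene was higher, Tm7sf2, and DESeq2 called that gene higher. Insig1 had -1.21 ± 0.21 (edgeR adjusted p = 0.0015), Fasn -1.22 ± 0.33 (edgeR adjusted p = 0.0372), Lss -1.09 ± 0.24 (edgeR adjusted p = 0.0118) and Sc5d -0.62 ± 0.15 (edgeR adjusted p = 0.0165). The calls of Fasn and Sc5d were lost in 6 and 1 of the 12 omissions of 1 library. With the replicate block 8 genes were called lower. For Acat2, which fell over 24 h in both culture types, the difference was 0.00 ± 0.35.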

How the data were processed

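Poly(A) RNA libraries (TruSeq Stranded mRNA kit, per the labels) were sequenced by the authors. The tools listed in the submitters' processing notes, without their roles, are STAR 2.7.3a, HTSeq 0.12.4 and DESeq2 1.30.1, with the genome build GRCm39. The values analysed are raw read counts per gene as deposited by the authors, 1 file a library. The 5 lines of each file that name no gene held 10.98% to 16.4% of its counts and were left out. The strand setting of the counting is not stated in the labels or files. Depth was 27.01 to 85.8 M gene counts a library (M for 1e6).

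Tests used edgeR 4.0.16 (R 4.3.3): filterByExpr with a minimum count of 10, TMM scaling and glmQLFTest, with Benjamini-Hochberg adjustment over all genes fitted and a threshold of 0.05. GM comparisons came from a fit of the 15 GM libraries (16152 genes), FL comparisons from the 9 FL libraries (15961 genes) and comparisons between culture types from all 24 (17262 genes). Levels are CPM on TMM-scaled library sizes over all 24 libraries, so a ratio of mean levels can differ slightly from a fitted fold change. The heat map adds a pseudocount of 1 before the log2. The scripts were tested on simulated data with known changes. The simulated spread was near that of the GM fit and below those of the other fits, so the test does not cover the spread of FL libraries.

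Alternatives were median-of-ratios scaling, no filter on low counts, DESeq2 1.42.0, the replicate number as a block, the compared groups only, each library left out in turn, and, added after seeing the data, omission of culture 91. The pairing check correlated deviations from group means between same-numbered libraries. In FL cultures, whose number is that of the culture, all 9 correlations were over 0.1 (0.117 to 0.818), so the numbers pair the libraries. In GM cultures 19 of 30 were (0.0109 to 0.487). There all pairs were over 0.1 for 0.5 against 0.1 µM and for 1 against 0.1 µM. The median of the 30 was 0.142, against -0.082 for GM libraries of different numbers. The check therefore does not show whether the libraries of the other GM comparisons are paired.

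Per-library values are given, in each comparison, for up to 3 called genes of each role with the largest change, or the gene with the smallest p where none was called, and for some further genes chosen after their values were seen. The genes and lists were chosen with earlier results of these data known. Promoter sequences are from RefSeq, and exon lengths and overlaps from GENCODE M21. Single values of some further genes of the pathway lists are not reported here.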

Additional observations from a re-analysis of the deposited data

Results flagged for a closer look

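Between culture types, 12 differences were called by the interaction term of edgeR's fit over all 24 libraries. Such a difference sets FL against GM cultures and, for the response to AZD5582, also 0.05 µM against 0.1 µM, so culture type and dose cannot be told apart. For the response to AZD5582, FL minus GM, the log2 differences were 1.746 for Insig1, 1.707 for Stard4, 1.535 for Msmo1, 1.492 for Lss, 1.428 for Sc5d, 1.076 for Fdps, 1.056 for Cyp51 and 0.8597 for Srebf1. For the change over 24 h in DMSO, FL minus GM, they were -1.217 for Fasn, -1.208 for Insig1, -1.095 for Lss and -0.6215 for Sc5d. Insig1, Lss and Sc5d appear in both sets with opposite signs, and both differences use the FL DMSO and GM DMSO libraries, with opposite sign.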

How the results depend on the processing

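Of 330 log2 fold changes (30 genes in 11 comparisons), 162 were called as reported and 216 in any setting tried, and 0 of these 216 changed sign. In the 3 comparisons of a dose with DMSO in GM cultures and in GM DMSO against t0, median-of-ratios scaling, no filter, DESeq2 and the replicate block changed no call among the 30 genes. Scaling moved the median of all genes by at most 0.079.

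At 1 µM against 0.1 µM the number called higher was 9 with the compared groups only, and 9 to 14 when 1 library was left out, with 1 to 2 lower. At 0.5 µM against 0.1 µM these ranges were 5 to 9 higher and 1 to 2 lower. With FL 0.05 µM against DMSO, the number called higher was 1 with the replicate block and 3 without culture 91, and 0 to 3 when 1 library was left out. The number called lower was 2 by DESeq2, 1 with the block, 1 without culture 91 and 0 to 1 when 1 library was left out. FL DMSO against t0 gave 2 to 18 lower, and FL t0 against GM t0 gave 3 to 6 lower, when 1 library was left out. For the difference of responses the number called higher was 13 by DESeq2, 18 with the replicate block, 15 without culture 91 and 6 to 14 when 1 library was left out, and 1 gene (Pmvk) was called lower without culture 91. For the difference over 24 h the number called lower was 2 with no filter, 8 with the block, 8 without culture 91 and 2 to 8 when 1 library was left out, with 1 called higher by DESeq2. The causes were not tested.

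Over all genes, calls moved by more than 1.5 times in the same comparisons. At 0.5 against 0.1 µM they were 1849 as reported and at least 1062 with 1 library left out. At 1 against 0.1 µM they were 3036 as reported, 1785 with the compared groups only and at least 1831 with 1 library left out. For FL 0.05 µM against DMSO they were 463 as reported, 1526 by DESeq2, 1098 with the block, 2283 without culture 91, 31 with the compared groups only and 17 to 1983 with 1 library left out. For FL DMSO against t0 they were 1619 as reported, 3503 by DESeq2, 3107 with the block, 582 with the compared groups only and 13 to 1454 with 1 library left out. For the difference of responses they were 289 as reported, 187 with no filter, 646 by DESeq2, 738 with the block, 800 without culture 91 and 93 to 591 with 1 library left out. For the difference over 24 h they were 835 as reported, 503 with no filter, 1685 with the block, 2596 without culture 91 and 486 to 1869 with 1 library left out.

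The replicate block changed no other call among the 30 genes than those given, except that at 0.5 against 0.1 µM Msmo1 and Srebf2 were also called higher. With 3 libraries a group, the p-values cover the spread between these libraries only.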
